A study of Mus musculus with 4 samples.

Results

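The erythroid and megakaryocyte genes examined here were 8: Car1, Car2, Tal1, Gata1, Gfi1b, Klf1, Epor and Pf4. They were found by name, as every probe set whose single gene symbol in the platform annotation was one of these, which gave 8 probe sets, 1 for each gene, of 45101 on the array, and 8 of 18193 named genes. Expression was measured in sorted, unstimulated mouse progenitors of 2 kinds, granulocyte monocyte progenitors (GMP) and cells titled MDP, for which the labels name the cell type macrophage dendritic cell. Each was taken from wild-type mice and from mice labelled Trib1-/-, all on a mixed background of C57BL6J/129SV. There were 4 groups with 1 Affymetrix array each. The sources used here do not give the ages, the Trib1 allele, the sort gates or how many mice an array stands for. Values follow 1 order throughout: GMP first, then MDP, and wild type before Trib1-/- within each. With 1 array per group nothing below has a replicate check, no test was possible and no p-value is given. The deposited values are RMA values on the log2 scale, so a difference of 1 is 2-fold. A value was called low where it lay under 3.29, the median of all values in the table. The number of arrays limits the precision.

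Red cells and platelets descend from a shared precursor that is set apart from the granulocyte and monocyte line. GATA1, a zinc finger factor, and TAL1, a basic helix-loop-helix factor, bind DNA together with LMO2 and LDB1 and switch on much of the red cell programme. KLF1 activates the adult beta-globin gene, GFI1B is a repressor needed in both lines, and the erythropoietin receptor (EPOR) carries the survival signal of red cell precursors. CAR1 and CAR2 are carbonic anhydrases, abundant in red cells, and CAR2 is also made by osteoclasts and other cells. PF4 is a chemokine of platelet granules. TAL1 is shared with stem cells, mast cells and early progenitors.

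Most of these genes gave low values everywhere. Of the 8, Car1, Gata1, Gfi1b, Klf1, Epor and Pf4 (6 genes) lay under the median of the table on all 4 arrays. Tal1 lay above it on all 4 arrays and Car2 on 3, the Trib1-/- MDP array being the exception. These 2 genes, the ones with values clear of the low range, were also those that read at least 2-fold lower in Trib1-/- than in wild-type MDP: Car2 by 3.22-fold and Tal1 by 2.26-fold. In GMP neither differed by 2-fold between genotypes.

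Because the lineage factors act through short DNA motifs, the 250 bases before each start site were searched in the RefSeq promoter table (build GRCm38.p6). It held 7 start sites of 6 of the genes, and Car1 and Car2 were not matched. The first of the Tal1 start sites is shown because Tal1 is the lineage factor that read above the table median on every array. Its upstream stretch is chr4:115056176-115056425, plus strand, written 5′ to 3′ with the GATA match in capitals.
Tal1: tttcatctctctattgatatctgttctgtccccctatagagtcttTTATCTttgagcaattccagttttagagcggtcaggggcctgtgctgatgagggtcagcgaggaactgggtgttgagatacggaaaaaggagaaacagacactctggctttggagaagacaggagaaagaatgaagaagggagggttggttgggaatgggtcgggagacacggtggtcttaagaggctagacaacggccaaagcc

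The GATA motif was searched on both strands in 4 spellings. They were AGATAA and AGATAG, and the same words that begin with T, namely TGATAA and TGATAG. It was present before 4 of the 7 start sites, against 26.5% of all 32851 start sites in the table. The matches of the 4 genes, with up to 12 bases on each side and the match in capitals, show which of the genes share these letters.
Tal1, chr4:115056209-115056238, plus strand: ctatagagtcttTTATCTttgagcaattcc
Gfi1b, chr2:28622085-28622114, minus strand: tctgtgaagtttTGATAAgcaaatgtggct
Klf1, chr8:84901890-84901919, plus strand: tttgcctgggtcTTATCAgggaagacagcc
Epor, chr9:21963613-21963642, minus strand: ggtggctgtagcTTATCTgtccccagcctg

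The matches began 205 bases (Tal1), 120 bases (Gfi1b), 80 bases (Klf1) and 54 bases (Epor) before the start. Gata1, Pf4 and the other Tal1 start site had none in this window. The E-box CANNTG, the core letters bound by factors of the TAL1 class, was present before 5 of the 7 start sites (66.2% of all), and CCNCNCCC, the letters of KLF sites, before 4 (45.9% of all), each searched on both strands. These matches are descriptions of the letters and not evidence of binding. Of the 4 genes with a GATA match, Tal1 was the one with values above the table median.

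The plot of the values by array shows the split between these 2 genes and the other 6.

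**Figure D1:**
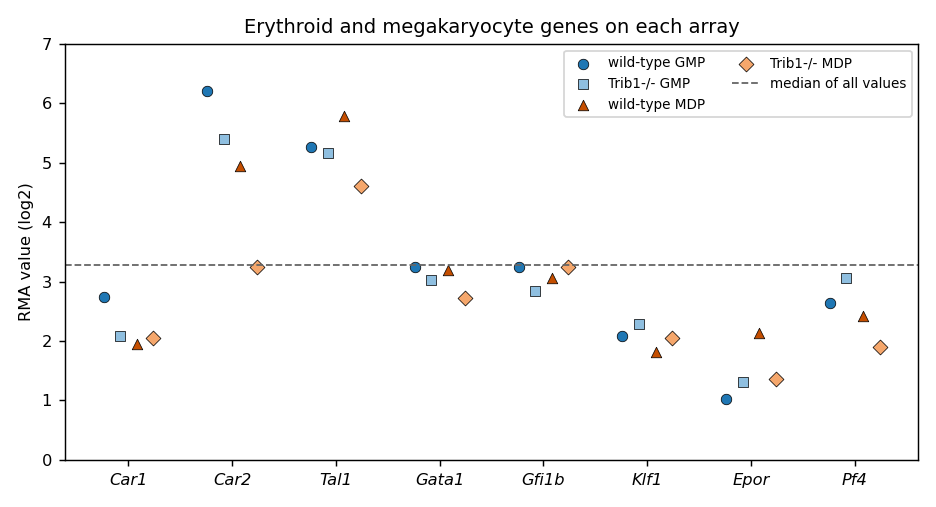
RMA values (log2) of the single probe set of each erythroid or megakaryocyte gene on the 4 arrays, 1 point per array with no error bar because each group has 1 array. The dashed line is the median of all values (3.29), and only Car2 and Tal1 have points above it.

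Car2 had the widest range of the 8 genes. It read 6.21 and 5.39 in GMP (wild type, then Trib1-/-) and 4.94 and 3.25 in MDP. The Trib1-/- MDP array was thus the lowest, and it lay just under the table median. In MDP the genotype difference was -1.69, and only 19 of 11653 genes that reached the table median on at least 1 array, Car2 included, had a difference as low. In GMP it was -0.82, or 1.76-fold, with 687 genes as low or lower. Car2 also read lower in MDP than in GMP, by 2.41-fold in wild type and by 4.41-fold in the knockout. With the Trib1-/- MDP value raised to the table median, the difference in MDP was -1.66.

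The spread at hand was the disagreement of several probe sets of 1 gene over the same pair of arrays. Over 4922 genes its SD was 0.381 between the GMP arrays and 0.389 between the MDP arrays, which holds no variation of mice, sorts or arrays. The gap in Car2 between the MDP genotypes was 4.33 times this SD and that between the GMP genotypes 2.14 times. The middle values, Trib1-/- GMP and wild-type MDP, were 0.45 apart, about the SD of 0.443 for that pair of arrays. None of the 8 genes had another probe set with which its own values could be compared.

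Tal1 followed another order. It read 5.26 and 5.17 in GMP (wild type, then Trib1-/-) and 5.79 and 4.62 in MDP. The GMP arrays stood close together, and the MDP arrays lay on either side of them. The genotype difference was -1.18 in MDP, where 88 of the 11653 genes were as low or lower, and -0.09 in GMP. From wild-type MDP to wild-type GMP the gap was 0.54, below the SD of 0.556 between probe sets for those arrays, and the GMP genotypes differed by less than their SD too. The gap between Trib1-/- GMP and Trib1-/- MDP was 0.55, or 1.29 times the SD. Whether the genotype difference was larger in MDP than in GMP could not be tested; the MDP difference minus the GMP difference was -0.87 for Car2 and -1.09 for Tal1.

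The other transcription factors of the line read low. Gata1 was at 3.24 and 3.03 in GMP and at 3.19 and 2.73 in MDP. Gfi1b was at 3.25, 2.84, 3.06 and 3.25 in the same order of arrays. Both came close to the table median from below. The genotype difference of Gata1 in MDP (-0.46) and that of Gfi1b in GMP (-0.40) were slightly larger in size than the SD between probe sets for those arrays (0.389 and 0.381), all at values under the table median. Klf1 read 2.08, 2.29, 1.82 and 2.05, with its genotype differences (0.21 and 0.23) below that SD. Low values of this kind cannot be told from background signal, so they do not show that the RNA was absent.

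The receptor and effector genes also stayed low. Epor read 1.02 and 1.31 in GMP and 2.14 and 1.36 in MDP, so the wild-type MDP array stood highest. Pf4 read 2.64, 3.07, 2.42 and 1.90 in the same order, with the Trib1-/- MDP array lowest. Car1, the red cell carbonic anhydrase, read 2.73, 2.09, 1.96 and 2.05, with wild-type GMP highest and the other 3 arrays closer together than the SD between probe sets. Over the 6 low genes the genotype difference ran from -0.64 (Car1) to 0.43 (Pf4) in GMP and from -0.78 (Epor) to 0.23 (Klf1) in MDP, and 3 of 6 were below 0 in each. The 3 below 0 were Car1, Gata1 and Gfi1b in GMP, and Gata1, Epor and Pf4 in MDP.

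Against all genes, the counts were as follows. In MDP, 2 of the 8 genes read at least 2-fold lower in Trib1-/- and 0 higher, where 1.53% of the 11653 genes reaching the table median were lower and 1.10% higher. Only 2 of the 8 entered that background, and both were lower. In GMP 0 of the 8 were 2-fold apart, where 3.16% of all genes were lower and 0.481% higher. The median genotype difference over the 8 genes was -0.49 in MDP and -0.15 in GMP, beside 0.01 and -0.06 over all 11653 genes. These sets are unlike, because 6 of the 8 lay under the table median on every array, where differences cannot be told from background. Raising low values to the table median sets each of those 6 differences to 0.00 by construction. It therefore cannot show whether the 8 shifted as a set, and the medians are not read as such a shift. Centring each array on its median above the floor of 3.29 changed the MDP background from 178 lower and 128 higher genes to 213 and 97, while Car2 (-1.73) and Tal1 (-1.22) stayed 2-fold lower.

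Between the progenitors, Car2 was the 1 gene of the 8 that reached the table median and differed by 2-fold, and it was lower in MDP in both genotypes. Among all genes 12.4% were at least 2-fold lower and 4.16% higher in wild-type MDP than in wild-type GMP, and 4.08% lower and 2.75% higher in the knockout. The wild-type split of 1445 lower and 485 higher became 1178 and 711 when each array was centred, with Car2 at -1.17. Of the low genes, Epor differed by 1.12 between wild-type MDP and wild-type GMP and Pf4 by -1.17 between the Trib1-/- arrays (MDP minus GMP), with every one of these values under the table median. The comparisons share arrays with those between genotypes, so they are not separate evidence.

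The plot of genotype differences places the 8 genes among the other genes of their pathways.

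**Figure D2:**
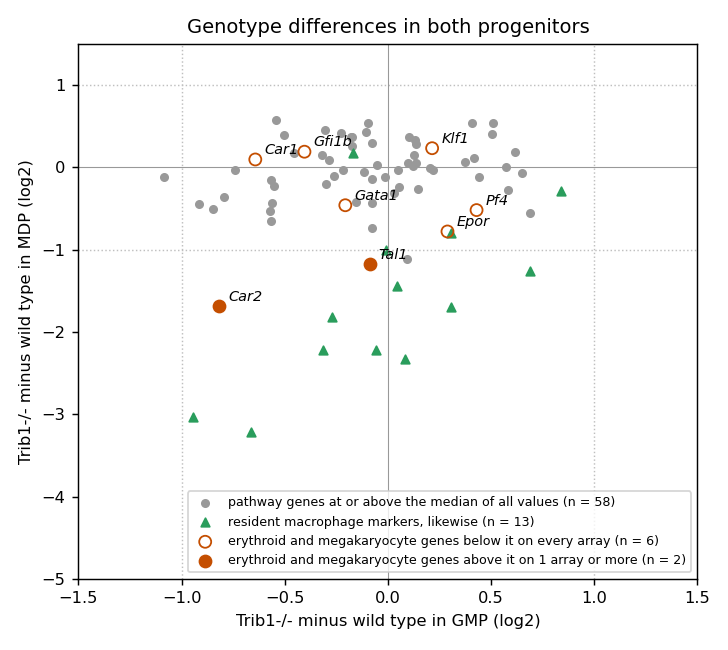
Log2 difference between Trib1-/- and wild type in GMP (horizontal) and MDP (vertical), 1 point per gene. Dotted lines mark 2-fold. Car2 (-0.82, -1.69) and Tal1 (-0.09, -1.18) lie below the lower dotted line with 1 pathway gene (Hbb-bh1) and 10 of the 13 resident macrophage markers, while the 6 low erythroid and megakaryocyte genes lie within 2-fold in both directions.

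The wider pathways were followed with 6 lists that leave out the 8 genes. Together they held 104 genes with a probe set, of which 58 reached the table median. Of these, 1 was at least 2-fold lower in Trib1-/- GMP, 1 in Trib1-/- MDP and none was higher in either, and their median difference was -0.08 in GMP and -0.02 in MDP. Among all 11653 genes 3.16% were lower and 0.481% higher in Trib1-/- GMP, and 1.53% and 1.10% in Trib1-/- MDP. The counts for the 58 are thus not read as a trait of these pathways.

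Lineage factors and partners of GATA1 and TAL1 were nearly all measured, with 18 of 19 at or above the table median on all 4 arrays. Zfpm1, the GATA1 cofactor, was the exception, under it on every array. None of the 18 was 2-fold apart between genotypes, though another probe set of Hdac2 read -1.21 in GMP. The medians were -0.20 in GMP and 0.04 in MDP. Gata2, the GATA factor of stem cells and mast cells, read 7.11, 6.20, 4.99 and 4.54. Its order over the arrays was that of Car2, with genotype differences of -0.91 and -0.45, though its other probe set read -0.54 and 0.00. In GMP, Tcf3, the E-protein that pairs with TAL1, was at -0.79 (other probe sets -0.46 and -0.18), the demethylase gene Kdm1a at -0.57 (other probe set -0.36) and Nfe2, a factor of platelet formation, at -0.57. In MDP, Lyl1, the close relative of TAL1, was at -0.65, Kdm1a at -0.53 (other probe set -0.15) and Bcl11a, the fetal globin repressor, at 0.43 (other probe sets -0.08 to 0.46). Lmo2, which bridges TAL1 and GATA1, read 8.86, 8.36, 7.19 and 7.59, a difference of MDP minus GMP of -1.67 in wild type and -0.77 in the knockout.

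Erythropoietin signalling genes, which many cytokine receptors share, were 11 of 12 above the table median on some array. Ptpn6, the phosphatase SHP-1 that dampens the signal, was 2-fold lower in Trib1-/- GMP (-1.08), but its other probe set read -0.38. Jak2, the kinase bound to EPOR, differed by -0.54 in GMP and 0.58 in MDP, and its other probe set read -0.41 and -0.46. The adaptor genes Gab1 (0.44) and Sh2b3 (0.41) were next in GMP, and Sh2b3 (0.54), Stat5a (0.45) and the survival gene Bcl2l1 (0.37) in MDP. The list medians were -0.17 in GMP and 0.09 in MDP.

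Genes of the red cell membrane and the globins were mostly low, and this is the list that marks maturing red cells. Of 24 with a probe set, 5 reached the table median, and 3 of them (Hba-a2, Hbb-bh1 and Gypc) did so on all 4 arrays. All 5 were below 0 in MDP, with a median of -0.43, where 5655 of all 11653 genes were also below 0. Hba-a2, 1 of the 5, was at -0.03. Hbb-bh1, an embryonic beta-like globin gene, read 4.01, 4.11, 5.15 and 4.03. The wild-type MDP array stood above the other 3, and the genotype difference in MDP was -1.12. Its other 2 probe sets did not reach the table median. Slc4a1, the anion exchanger of the red cell membrane, read 2.86, 3.55, 4.14 and 3.58, again highest in wild-type MDP, with differences of 0.69 in GMP (0.27 with its low value raised to the table median) and -0.56 in MDP. Tspan33 was at -0.56 (-0.12 when raised in the same way) and -0.43 and Gypc, glycophorin C, at -0.16 and -0.42. The adult alpha-globin probe sets disagreed: Hba-a2 read between 6.97 and 7.19 on the 4 arrays while Hba-a1 read between 1.47 and 1.72, and since these genes are near-identical copies neither value is taken as a globin level. Rhag, Kel, Aqp1, Hemgn and Ermap lay under the table median on every array. The main adult beta-globin genes are not analysed here.

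Haem synthesis, needed in every cell and most of all in red cell precursors, showed no 2-fold genotype difference in 9 measured genes, with medians of 0.03 in GMP and -0.14 in MDP. The other probe set of Abcb10, a mitochondrial transporter gene, read -1.08 in GMP. Alas1, the enzyme of the first step outside red cells, was at -0.85 in GMP and -0.51 in MDP, with its other probe set at -1.26 and 0.27. Alas2, its red cell form, lay under the table median on all 4 arrays. Slc25a38 (0.62, but 0.02 with its low value raised to the table median), Cpox (0.51) and Fech (0.37) were higher in Trib1-/- GMP, though the other probe sets of Cpox and Fech read -0.31 and -0.60. In MDP, Alad was at -0.73 (-0.35 with its low value raised to the table median), Cpox at 0.40 with its other probe set at -0.24, and the iron carrier gene Slc25a37 at 0.37. Between progenitors, MDP read 2-fold lower than GMP for 3 of 9 haem genes among wild-type arrays and for 4 among Trib1-/- arrays, Alas1 by the most (-2.66 and -2.32, with its other probe set at -4.04 and -2.51). Among all genes 12.4% were lower by that much on the wild-type arrays and 4.08% on the Trib1-/- arrays. Whether haem genes differ from these shares was not tested.

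Of 24 megakaryocyte and platelet genes with a probe set, 11 reached the table median, and none of the 11 was 2-fold apart between genotypes. Several of them, such as F13a1 and Plek, are also genes of monocytes. The medians were 0.13 in GMP and -0.03 in MDP. The largest differences were Cd9 (-0.74), Thbs1 (0.58), Itga2b, the platelet integrin chain (-0.26), and Cxcr2 (0.22) in GMP, and Alox12 (-0.43), Vwf (0.33), Thbs1 (-0.28) and Selp (-0.24) in MDP. With low values raised to the table median, Thbs1 was at 0.24 in GMP and Thbs1 and Vwf were at 0.00 in MDP, and the other probe sets of Selp in MDP ran from -0.52 to 0.52. Ppbp, the chemokine gene next in kind to Pf4, and the platelet receptor genes Gp5, Gp6 and Gp1bb lay under the table median on every array.

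The other carbonic anhydrases did not follow Car2. Of 14, 4 reached the table median: Car3 differed by 0.65 in GMP (other probe sets 0.26 to 0.48) and -0.06 in MDP, Car14 by 0.51 and 0.54, Car6 by -0.10 and 0.54, and Car8 by 0.57 and 0.00. None was 2-fold apart, and their medians were 0.54 in GMP and 0.27 in MDP. With low values raised to the table median, Car8 was at 0.00 in GMP and Car6 at 0.33 in MDP.

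Between the progenitors, 12 of the 58 pathway genes were 2-fold apart on the wild-type arrays, 8 of them lower in MDP and 4 higher. Over all genes 12.4% were lower and 4.16% higher there, so these counts are close to what genes of any kind gave. Besides Alas1 and Lmo2, those lower were Gata2 (-2.12), Slc25a37 (-1.54), Nfe2 (-1.53), Cd9 (-1.33), Abcb10 (-1.31) and Stat5a (-1.10). The higher ones were F13a1 (1.66), which encodes a clotting factor chain, Slc4a1 (1.28, but 0.86 with its low value raised to the table median), Hbb-bh1 (1.14) and Plek (1.05). On the Trib1-/- arrays 7 were lower and 5 higher, where 4.08% of all genes were lower and 2.75% higher. Both shares were thus larger among the 58 than among all genes there, a difference that was not tested. Lower were Alas1, Thbs1 (-1.70), Gata2 (-1.66), Abcb10 (-1.37), Slc25a37 (-1.27), Nfe2 (-1.12) and Fech (-1.07), and higher were F13a1 (1.75), Bcl11a (1.38), Jak2 (1.32), Ptpn6 (1.09) and Sh2b3 (1.03). Several of these calls rest on 1 probe set or on a low value. Thbs1 was at -0.24 with low values raised, and the other probe sets read 0.06 for Abcb10, 0.37 for Jak2, 0.30 for Ptpn6 and 0.42 to 0.99 for Bcl11a. Slc4a1 and Hbb-bh1 differed by 0.03 and -0.08 there.

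**Figure D3:**
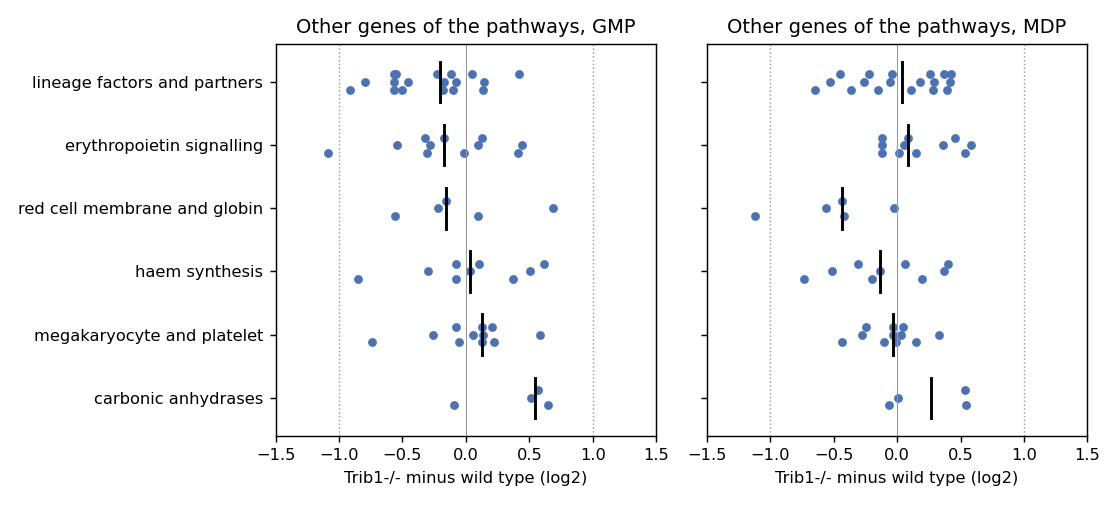
Log2 difference between Trib1-/- and wild type in GMP (left) and MDP (right) for the pathway genes that reached the median of all values, without the 8 genes of interest. Each point is a gene, the black bar is the median of its list and dotted lines mark 2-fold. Ptpn6 in GMP (-1.08) and Hbb-bh1 in MDP (-1.12) are the only points beyond 2-fold.

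Markers of other cells that could bear on these values were read beside them. The GMP label went with high values: all 8 GMP markers reached the table median, and all 8 were at least 2-fold higher in wild-type GMP than in wild-type MDP, among them Elane and Ms4a3. Among all 11653 genes, 12.4% were at least 2-fold lower in wild-type MDP than in wild-type GMP and 4.16% higher. Between the Trib1-/- arrays 4.08% were lower in MDP and 2.75% higher. Of 7 MDP markers, Csf1r, Irf8, Flt3 and Ccr2 read at least 2-fold higher in MDP than in GMP in both genotypes, but 1 other probe set of Ccr2 differed by 0.00 among wild-type arrays. The rest did not follow. MDP minus GMP was 0.34 and 0.30 for Cx3cr1 (wild type, then Trib1-/-), -1.35 and -0.69 for Cd34, and -3.58 and -2.69 for Kit. Cd34 and Kit stand in both marker lists, so they are also among the 8 GMP markers. Kit reached the table median on the GMP arrays alone and Flt3 on the MDP arrays alone, which set their directions between progenitors. Fcgr3, a GMP marker, was 2-fold lower in Trib1-/- MDP (-1.81), and no MDP marker differed by 2-fold between genotypes, though the other probe sets of Ccr2 differed by 0.45 and 2.21 in MDP. Kit, by which MDP are usually defined, was under the table median on both MDP arrays (2.43 and 2.69). The 2 probe sets of Trib1 differed between genotypes by 0.34 and 0.15 in GMP and by -0.41 and -0.43 in MDP, and which part of the gene was deleted is not given, so they do not check the labels. The wild-type GMP array correlated least with both MDP arrays (0.947 and 0.949, against 0.964 and 0.966 for Trib1-/- GMP). It enters the GMP genotype difference and the wild-type contrast between progenitors, and neither can be formed without it.

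Resident macrophage markers were lower in Trib1-/- MDP, as were Car2, Tal1 and Hbb-bh1. Of 16 markers, 13 reached the table median, and 10 read lower by 2-fold or more in Trib1-/- MDP, among them Vcam1 (-3.21), Slc40a1 (-3.03), Mrc1 (-2.22) and Cd163 (-1.82). Over all 11653 genes 1.53% were lower by that much. C1qb, Hmox1, Fcna and Axl, all among the 10, reached the table median on the wild-type MDP array alone. They entered through the array where they are high, so a lower Trib1-/- MDP value was set by that rule. With low values raised to the table median 7 of the 13 were 2-fold lower, and the other probe sets read -1.46 for Vcam1 and -0.02 for Spic. The summed linear signal of all 16 was 191.7 and 165.3 in GMP and 589.7 and 179.8 in MDP. C1qa, C1qc and Cd5l lay under the table median on all arrays. This list was drawn up with the earlier result on macrophage genes known. The part of macrophage RNA in the Car2 and Tal1 values was not tested. Tal1 had the same order over the arrays as Vcam1 and as Slc40a1 (5.20, 4.26, 6.72 and 3.69), with wild-type MDP highest and Trib1-/- MDP lowest. Of the other markers that reached the table median, only Fcna had this order. Mrc1, Cd163, Mertk, Adgre1, Hmox1 and Axl peaked in wild-type MDP too, but read higher in Trib1-/- MDP than on both GMP arrays. Car2, like Tal1, was lowest in Trib1-/- MDP, but it was highest in wild-type GMP. In bulk samples such as these, fewer cells of a type and less RNA per cell cannot be told apart.

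Basophil and mast cell markers were lower in Trib1-/- GMP, as were Car2 and Gata2. Of 10 markers 6 reached the table median, and all 6 were below 0 in Trib1-/- GMP, 4 of them at least 2-fold (Gzmb, Cpa3, Mcpt8 and Hdc). Over all 11653 genes 3.16% were lower by that much. Gzmb reached the table median on the wild-type GMP array alone, which set its direction. Cma1, Tpsb2, Il4 and Cyp11a1 lay under it on every array and read above 0 in GMP. The summed signal of all 10 was 361.2 and 149.8 in GMP and 64.9 and 55.0 in MDP. In MDP none of the 6 was 2-fold apart. Of 6 eosinophil markers 4 reached the table median, with Siglecf and Prg2 2-fold lower in Trib1-/- GMP and Epx at 1.38 in MDP, or 0.25 once the low value of wild type is set to the table median. Siglecf, like Gzmb, reached it on the wild-type GMP array alone. The summed eosinophil signal was 203.6, 115.6, 41.6 and 48.5 in the same order of arrays. The part of these cells in the Car2 and Gata2 values was not tested. Of 7 stem and early progenitor markers that reached the table median, Slamf1 was 2-fold lower in Trib1-/- MDP and Cd48 in Trib1-/- GMP, and the summed signal of all 8 ranged from 368.4 to 475.8. Lymphocyte markers (5) held no 2-fold genotype difference.

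The genes whose 4 values were most like those of Car2 and Tal1 were looked up among 10929 other named genes. Likeness was the root mean square difference after each gene was centred on its own mean over the 4 arrays, so it rests on 4 values per gene and describes these arrays only. Nearest to Car2 were Bsg, a chaperone of lactate transporters (0.12), Mrps26, of the mitochondrial ribosome (0.19), and Chchd3, of the mitochondrial inner membrane (0.20). Bsg read 5.08, 3.92, 3.71 and 1.99, the same stepwise order as Car2. In Trib1-/- MDP both Bsg and Mrps26 (2.65) lay under the table median. Nearest to Tal1 were Tmem141 (0.03), the stem cell marker Slamf1 (0.05) and Bicc1 (0.06). Tmem141 read 3.36, 3.28, 3.86 and 2.65, so its values on both Trib1-/- arrays lay under the table median. Slamf1 read 4.33, 4.20, 4.75 and 3.58, so wild-type MDP was highest and Trib1-/- MDP lowest, as for Tal1. Its other probe sets read -0.54 and -0.22 in MDP in place of -1.17.

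**Figure D4:**
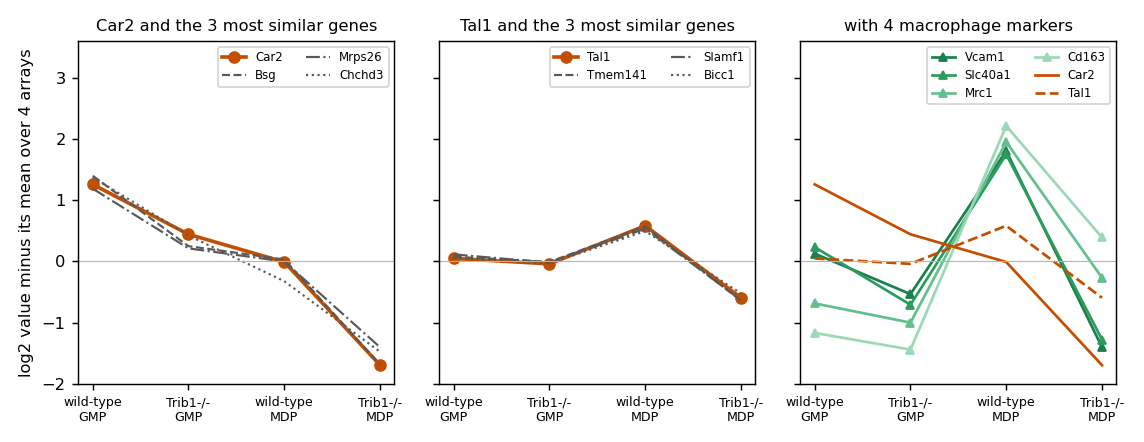
Values on the 4 arrays after subtracting each gene's own mean (log2), for Car2 and Tal1 with their 3 most similar genes and, on the right, with 4 resident macrophage markers picked after their values were seen. Lines join the arrays for legibility only. Car2 steps down from wild-type GMP to Trib1-/- MDP, while Tal1 and the macrophage markers peak in wild-type MDP.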

How the data were processed

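The deposited values of 45101 probe sets on 4 arrays (1 per group) were made by the authors with RMA, per the submitters' processing notes, which corrects background, aligns the arrays' distributions and summarises probes. The sources used here do not give the version. The log2 scale of the deposited values was read from their range (0.14 to 14.5, median 3.29). Biotin-labelled cRNA was prepared from total RNA with the NuGEN Ovation system, per the labels' protocols.

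Only probe sets with 1 symbol in the platform annotation (34958) were named, controls were left out, 932 had several, and a gene was its probe set with the highest mean. Of 18193 genes, 11653 reached 3.29, the floor, on at least 1 array and formed the background. Differences of at least 1 (2-fold) were counted, with no test. The genes and lists were chosen with earlier results of these data known. Named pathway genes were the 4 largest per list and genotype difference and any 2-fold apart, plus the 3 genes most similar to Car2 and to Tal1, predicted genes left out. Other named genes were chosen after their values were seen. Counting was tested on simulated data. Alternatives were no floor, a floor at 4.78 (75th percentile), values raised to the floor, probe set means, no suffixed probe sets, cyclic loess (limma 3.58.1, 3 iterations), centring, 32 added to the linear value, and 1.5-fold and 4-fold rules. Python 3.11.15 and pandas 2.3.3 were used.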

Additional observations from a re-analysis of the deposited data

Results flagged for a closer look

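Genotype differences pointed in opposite directions in the 2 progenitors for 4 of the 8 genes and for 2 pathway genes with differences of at least 0.5 in both. The difference between progenitors was not tested, each direction rests on 1 array per group. Car1 read -0.64 in GMP and 0.10 in MDP. Gfi1b read -0.40 and 0.19. Epor read 0.29 and -0.78, and Pf4 0.43 and -0.52. All values of these 4 genes lay under the median of the table. Of the 11653 genes that reached it, 6432 were below 0 in GMP and 5655 in MDP. How many of them had opposite directions was not counted, so the 4 of 8 is not read as a trait of these genes. Jak2 read -0.54 in GMP and 0.58 in MDP, but its other probe set did not (-0.41 and -0.46). Slc4a1 read 0.69 and -0.56.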

How the results depend on the processing

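Car2 and Tal1 stayed at least 2-fold lower in Trib1-/- MDP with cyclic loess (-1.71 and -1.22) and centring (-1.73 and -1.22), and Car2 with its low value raised to the floor (-1.66). No floor, the higher floor, probe set means and leaving out suffixed probe sets cannot change a difference here, since each gene has 1 probe set with no such suffix, and they show nothing about stability. With 32 added to the linear values, which shrinks weak signals, 0 of the genes were 2-fold apart in MDP, and 0 between progenitors in wild type or knockout: Car2 was at -0.59 and Tal1 at -0.63 in MDP. Few genes of any kind passed there: 0.026% of all genes were lower and 0% higher in Trib1-/- MDP. Between progenitors 2.74% were lower and 0.412% higher in MDP in wild type, and 0.575% and 0.532% in the knockout. A 4-fold rule left 0 in MDP and 0 between progenitors in wild type, and a 1.5-fold rule counted 1 gene, Car2, in GMP. Over all genes the 4-fold rule left 0.060% lower and 0% higher in Trib1-/- MDP. Between wild-type progenitors it left 1.30% lower and 0.318% higher in MDP. The 1.5-fold rule counted 13.2% lower and 5.28% higher in Trib1-/- GMP. With no floor, 2 genes were apart between progenitors in wild type (Car2 and Epor) and 2 in the knockout (Car2 and Pf4). All genes then gave 8.3% lower and 3.3% higher in wild-type MDP, and 2.8% and 2.1% in the knockout. Of 128 recomputed differences under the other 4 settings, 110 moved by less than the SD between probe sets, 18 moved by more and 0 of the 2-fold differences changed sign. Those 18 came from raising low values to the floor or adding 32. Many of the 128 outcomes were fixed in advance. Centring shifts every gene by the same small amount for a pair of arrays, and raising sets every difference of the 6 low genes to 0.00. The count of 110 is therefore no measure of stability. No paired analysis was possible because each group has 1 array. Signal near background limits 6 of the 8 genes, and no setting replaces missing replicates.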
